A study of Sus scrofa with 21 samples.

Results

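RAB proteins are small GTPases that sit on the membranes of the cell and give each compartment its identity. They switch between a form bound to GTP, which recruits effectors such as tethers and motors, and a form bound to GDP. Exchange factors turn them on, and GTPase-activating proteins, most of which carry a TBC domain, turn them off. In blood cells they direct the traffic of endosomes and phagosomes and the release of granules from lymphocytes, granulocytes and platelets.

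The expression of these genes was compared in whole blood between 10 SLAdd (DD) and 11 Large White (LW) pigs at 60 days of age. DD pigs are an inbred French minipig line that is homozygous at the SLA locus, the major histocompatibility complex of swine, and LW pigs are a commercial breed used as controls. All animals received a standard diet ad libitum, and no treatment was given. The DD pigs came from 5 litters and the LW pigs from 6, so that some animals were siblings, and breed cannot be told apart from anything else that differed between the herds. Each pig had its own array, a one-colour Agilent design with 60305 probes, and the arrays were spread over 3 chips that each held both breeds.

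Genes were included when the symbol in the array files began with RAB followed by a digit, or with RABGAP, RABGEF, RABEP, RABAC, RABIF, RABL, RABGGT or TBC1D. This gave 66 of the 16009 genes with a symbol on the array, measured by 139 probes. Of these, 62 were tested, and RAB33A, RAB34, TBC1D9 and TBC1D13 were removed as too dim. RAB8A, RABGEF1 and RABGGTB were looked for and had no probe under those symbols. All levels below are log2 intensities of the deposited quantile-normalized values, averaged over the probes of a gene. A difference is the log2 fold change (FC), DD minus LW, fitted in limma with a term for the chip and the litter as a random block. A gene is said to be called when its p-value, adjusted by Benjamini-Hochberg over all 36493 features, was below 0.05.

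The arrays of DD pigs were dimmer than those of LW pigs before normalization, and the gap grew from chip to chip. Brightness was taken as the 75th percentile of an array's processed signal on a log2 scale. Its mean was 7.95 in DD and 8.02 in LW pigs for chip 1, then 7.55 and 8.31 for chip 2, and finally 7.09 against 8.36 for chip 3. The authors' methods also name a technical bias of the third chip. Among markers of blood cells, CD3D, CD3G and CD8A were called lower in DD pigs out of 10 tested T cell markers, and ALAS2, EPB42, ANK1 and CA1 higher out of 10 erythroid markers. The mean level of the T cell list ran from 8.11 to 9.37 in DD and from 8.38 to 9.56 in LW pigs, and that of the erythroid list from 9.54 to 10.86 and from 9.16 to 10.36. No gene was called by limma in the lists of B cells, cytotoxic cells and granulocytes, where 0 had an unadjusted p below 0.05, and 1 was called lower in each of those of monocytes (CD163) and platelets (PPBP). The part of brightness, chip and cell composition in the differences below was not tested beyond the values given with them. In whole blood, fewer cells of a type and less RNA per cell cannot be told apart.

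Most called RAB genes and regulators were lower in DD pigs. Of the 62 tested, 14 were lower and 1 was higher, and the other 47 were not called. Over all features, 20.9% were called, 11.2% as higher and 9.68% as lower in DD pigs, and 11.5% of the features with a gene symbol were called lower. Among the members, 22.6% were called lower and 1.61% higher. The median FC of the members was −0.13, beside −0.05 over all features, and 42 of the 62 members had an FC below 0. With array brightness as a covariate these medians were −0.01 and 0.01, and with cyclic loess −0.03 and 0.01. The split of 14 lower and 1 higher became 8 and 2 when arrays were scaled to the 75th percentile, and 9 and 2 with cyclic loess. Without the litter block it was 8 and 0. In no member was every DD pig below every LW pig, which was the case for 0.299% of all features.

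**Figure D1:**
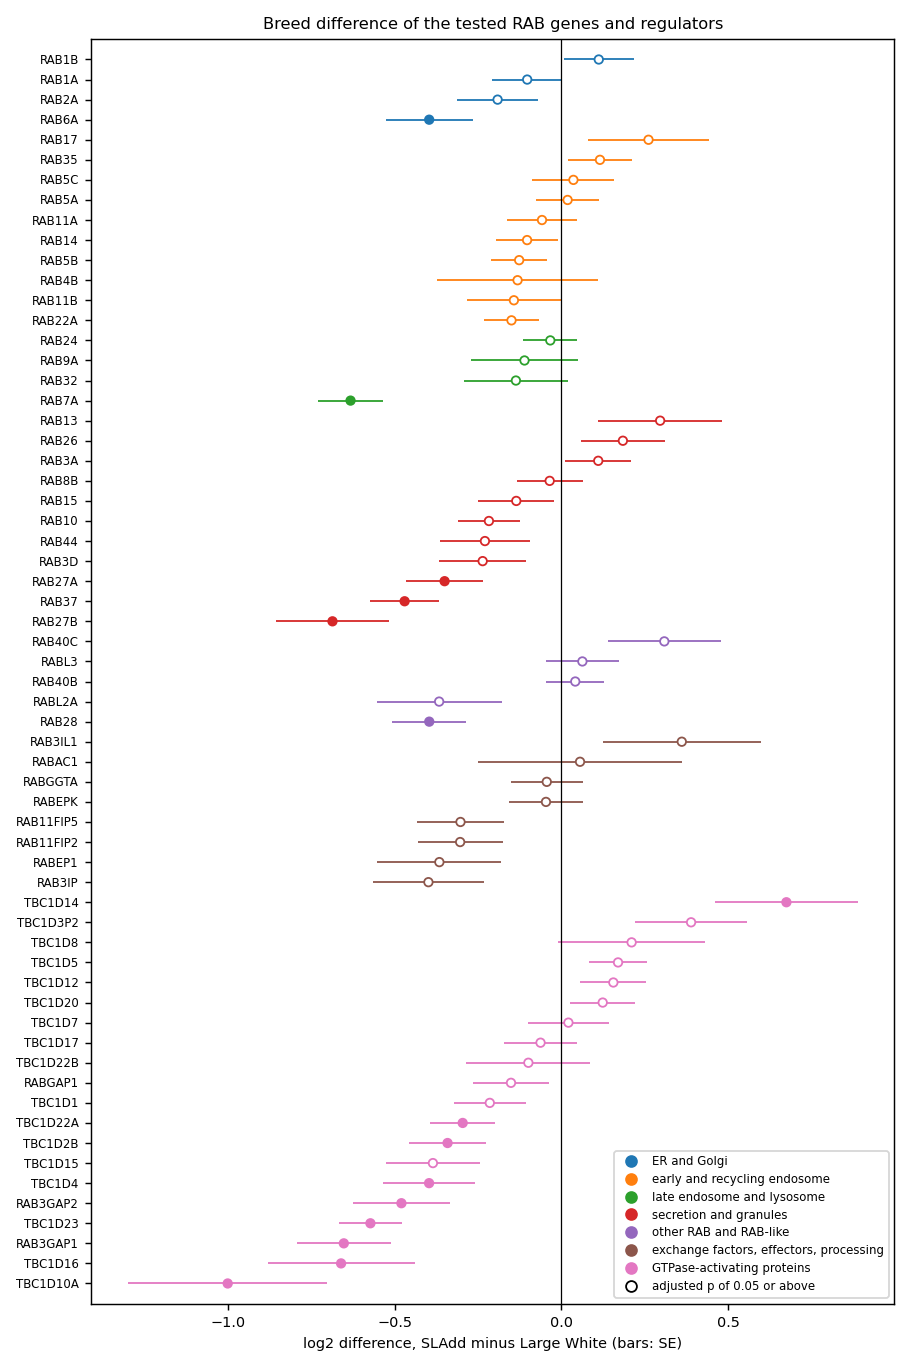
Log2 difference between DD (SLAdd) and LW (Large White) pigs of the 62 tested members, grouped by role, with bars for the standard error and filled points for an adjusted p below 0.05. Most filled points lie left of 0, with TBC1D14 alone on the right.

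RAB7A showed the smallest adjusted p of all members. It is the GTPase of late endosomes and phagosomes and drives their fusion with lysosomes. Its level ran from 9.75 to 10.60 in DD pigs, with a median of 10.14, and from 10.41 to 11.07 in LW pigs, with a median of 10.76. Of the 10 DD pigs, 9 lay below the lowest LW pig, and DD 06, the brightest DD array, was the exception. The FC was −0.63 ± 0.10 (SE), which is 1.55-fold lower in DD pigs (adjusted p = 0.000263). The FC was −0.47 on chip 1, where brightness was nearly equal, and −0.73 and −0.69 on the other chips. With array brightness as a covariate it was −0.48 (adjusted p = 0.0229), and the adjusted p ran from 5.32e-05 to 0.0403 over all other settings. It remained called with each of the 21 animals left out. The other tested late endosomal and lysosomal genes had smaller FC and were not called. RAB32, which serves lysosome-related organelles, had −0.14 ± 0.16, RAB9A, which works in retrieval from late endosomes to the Golgi, had −0.11 ± 0.16, and RAB24, linked to autophagy, had −0.03 ± 0.08.

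The 2 probes of RAB7A moved in the same direction by different amounts. The first had an FC of −0.98 ± 0.14 (adjusted p = 1e-04) and the second one of −0.29 ± 0.10 (adjusted p = 0.0408). The level of the first ran from 7.77 to 9.04 in DD and from 8.70 to 9.79 in LW pigs, and its FC was −0.84, −1.18 and −0.86 on chips 1 to 3. The second ran from 11.52 to 12.28 and from 11.76 to 12.45, and its FC was −0.09, −0.28 and −0.51 on the 3 chips. Both probes were therefore lower in DD pigs, but on chip 1 the second barely differed.

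Among the RAB genes of secretion and granules, 3 of 11 were called, all lower in DD pigs (27.3%, beside 9.68% of all features). RAB37, known from the exocytosis of granules, ran from 11.59 to 12.34 in DD and from 12.06 to 12.76 in LW pigs. Its FC was −0.47 ± 0.10 (adjusted p = 0.00552), and 6 DD pigs lay below all LW pigs. The FC was −0.40, −0.34 and −0.74 on the 3 chips, and −0.29 with brightness as a covariate (adjusted p = 0.282, in a range of 0.00189 to 0.282 over the settings).

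RAB27A docks cytotoxic granules at the membrane of T cells and natural killer cells, and RAB27B serves secretion in platelets and mast cells, among others. The level of RAB27A ran from 6.05 to 7.38 in DD pigs, with a median of 6.81, and from 6.74 to 7.69 in LW pigs, with a median of 7.18. The groups overlapped, with 4 DD pigs below all LW pigs. The FC was −0.35 ± 0.12 (adjusted p = 0.0375), with −0.26, −0.35 and −0.46 on the 3 chips. Its 4 probes gave nearly the same FC, from −0.36 to −0.32, although only 1 was called on its own (adjusted p = 0.0439, and 0.0524, 0.0879 and 0.107 for the others). The call was also lost without the litter block (adjusted p = 0.0502) and on litter means (adjusted p = 0.0705), with brightness as a covariate (0.56) and without chip 3 (0.36). It was lost in 13 of 21 fits with an animal left out, with an FC between −0.41 and −0.30.

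RAB27B, named after its values were seen because it was called, was measured by 1 probe near the limit of detection. It was well above background on no DD array and on 4 of 11 LW arrays. Its level ran from 3.83 to 5.25 in DD and from 4.26 to 5.53 in LW pigs, and the fitted FC was −0.69 ± 0.17 (adjusted p = 0.0117). With DD values under the lowest signal that was well above background on their array raised to it, RAB27B was 1.48-fold lower in DD pigs. LW values were left as measured although most were dim as well, so this is not a strict bound. Chips 1 and 2 gave an FC of −0.99 and −0.97, and chip 3 gave 0.06. The value of chip 3 rested on DD 23, at 5.25, and without it was −0.27, a value computed after seeing the data. RAB27B was called without chip 3 (FC −1.0, adjusted p = 0.00583) and with brightness as a covariate (FC −0.99, adjusted p = 0.0128), in a range of 0.00367 to 0.103 over the settings. The call was lost when arrays were scaled to the 75th percentile (adjusted p = 0.103), without chip 1 (0.0987) and without chip 2 (0.0584). With an offset of 50 in the background correction the FC was −0.21 (adjusted p = 0.025).

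RAB10, which brings vesicles to the plasma membrane, was not called. It ran from 6.53 to 7.09 in DD and from 6.59 to 7.19 in LW pigs, with an FC of −0.22 ± 0.09 (adjusted p = 0.0948). Leaving out DD 06 gave an adjusted p of 0.0205. The 2 probes averaged in RAB10 differed. The brighter one, well above background on all arrays, had −0.03 ± 0.14 (adjusted p = 0.908). The other, well above background on 1 DD and 6 LW arrays, had −0.41 ± 0.15 (adjusted p = 0.0566). The remaining 7 genes of this group lay between −0.24 for RAB3D and 0.30 for RAB13. The median FC of the group was −0.22.

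Probe sequences are shown for 4 RAB genes whose oligonucleotides could be placed in the coding part by a conserved GTPase box, since they show what the array measured in genes that moved and in genes that did not. The guanine-binding N-K-x-D box (codons for glycine, asparagine, lysine, any residue and aspartate) and the E-T-S-A box were searched in open frames on both strands. On the strand as printed, the first was held by 2 of the 139 member probes and 0.0249% of all probes, and the second by 3 member probes and 0.0365% of all probes. No member probe held either on the reverse strand. Capitals mark the codons of the box.
RAB27A, N-K-x-D box: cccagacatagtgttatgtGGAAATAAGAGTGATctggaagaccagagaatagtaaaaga
RAB27A, E-T-S-A box: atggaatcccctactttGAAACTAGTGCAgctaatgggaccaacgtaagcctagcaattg
RAB5A, N-K-x-D box: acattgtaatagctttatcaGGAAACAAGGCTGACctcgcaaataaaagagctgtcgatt
RAB11A, E-T-S-A box: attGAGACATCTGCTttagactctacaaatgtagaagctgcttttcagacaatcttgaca
RAB17, E-T-S-A box: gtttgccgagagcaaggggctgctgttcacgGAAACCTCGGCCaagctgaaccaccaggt
The FC of the first RAB27A probe was −0.36 ± 0.16 and that of the second −0.36 ± 0.13. The RAB5A probe had 0.08 ± 0.10 and the RAB11A probe 0.05 ± 0.12. The RAB17 probe, well above background on 1 DD array and no LW array, had 0.26 ± 0.18.

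**Figure D2:**
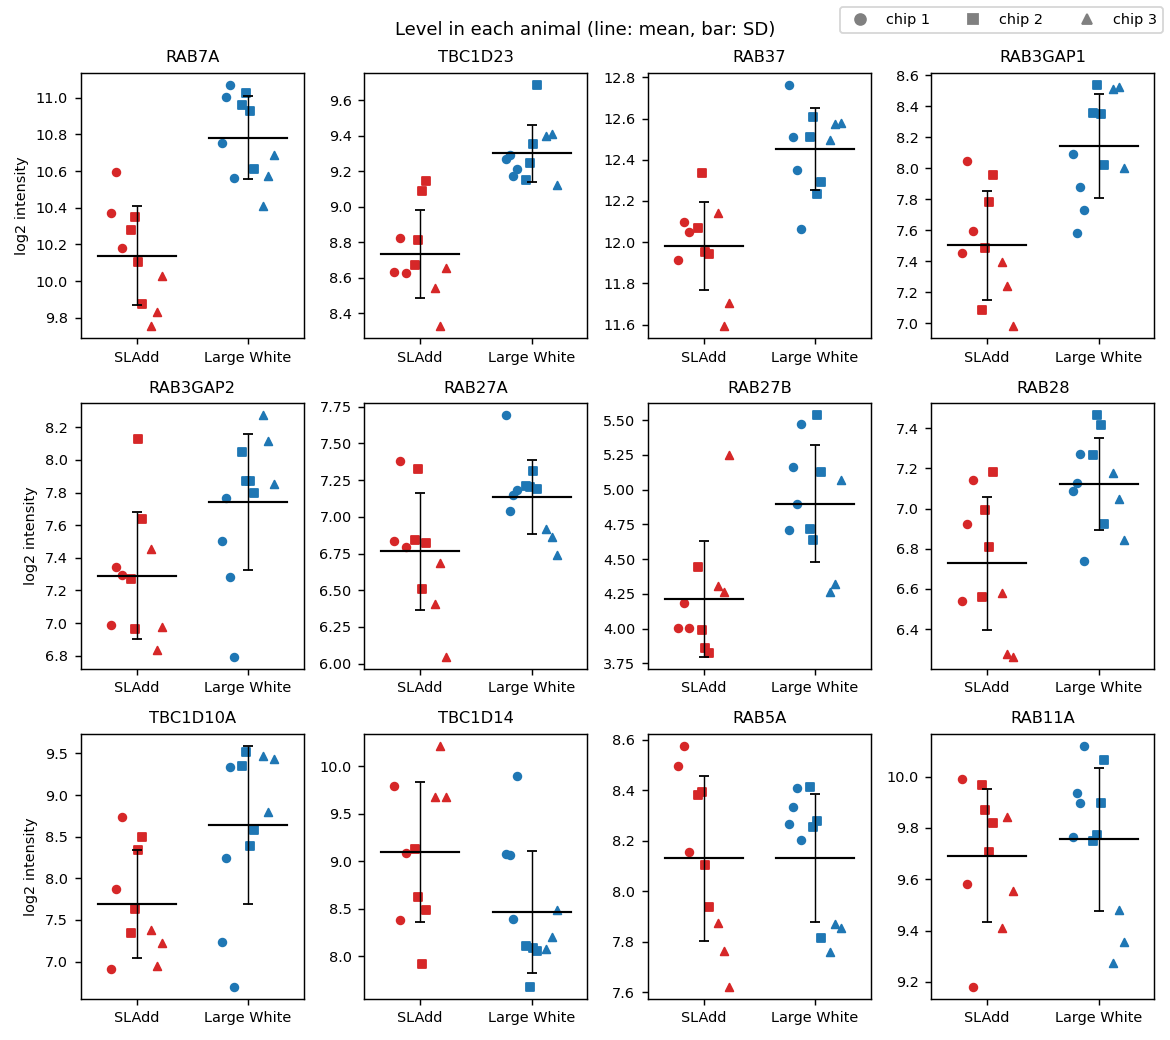
Log2 intensity of 12 members in each of the 10 DD (SLAdd) and 11 LW (Large White) pigs, with the chip as the marker shape, a line for the mean and a bar for the SD. RAB7A and TBC1D23 separate the breeds in all but a few animals, while RAB5A and RAB11A overlap throughout.

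No gene of early and recycling endosomes was called in limma, beside 20.9% of all features. Of the 10 tested, 0 had an unadjusted limma p below 0.05, beside 13409 of the 36493 features. Symbols written in lower case on the array fell outside the naming rule, and among them the recycling genes RAB4A and RAB25 were called higher when letter case was ignored (0.97 ± 0.28, adjusted p = 0.0253, and 0.93 ± 0.30, adjusted p = 0.0354). All 10 tested under the rule lay between −0.15 for RAB22A and 0.26 for RAB17, with a median FC of −0.08. RAB5A, which governs the fusion of early endosomes, ran from 7.62 to 8.58 in DD and from 7.76 to 8.41 in LW pigs, with an FC of 0.02 ± 0.09 (adjusted p = 0.902). RAB11A, which governs recycling back to the plasma membrane, ran from 9.18 to 9.99 and from 9.27 to 10.12, with an FC of −0.06 ± 0.10 (adjusted p = 0.716). Both genes were among the best covered, with FC from −0.05 to 0.08 over the 5 probes of RAB5A and from −0.11 to 0.05 over the 7 probes of RAB11A. Several of these probes overlap in sequence and are not separate measurements. On the 3 chips the FC of RAB11A was −0.35, −0.03 and 0.23, so its small overall value covers opposite signs.

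Of the genes that act between the endoplasmic reticulum and the Golgi, 1 of 4 was called, as lower (25%, beside 9.68% of all features). RAB6A, which directs traffic at the Golgi, had an FC of −0.40 ± 0.13 (adjusted p = 0.0366). It ran from 5.34 to 7.06 in DD and from 6.26 to 6.89 in LW pigs. The DD pigs were thus both below and above the whole LW range, and the FC was −0.29, −0.17 and −0.83 on the 3 chips. RAB6A was called in 10 of 18 other settings and in 11 of 21 fits with an animal left out, and had an FC of −0.31 with brightness as a covariate (adjusted p = 0.558, in a range from 0.0257 to 0.558). RAB1A, which acts in transport from the endoplasmic reticulum to the Golgi, ran from 7.17 to 8.42 in DD and from 7.19 to 8.28 in LW pigs, with an FC of −0.10 ± 0.10 (adjusted p = 0.498). RAB2A had −0.19 ± 0.12 and RAB1B 0.11 ± 0.11. Of the 3 probes of RAB1B, 1 was called higher in DD pigs (0.46 ± 0.16, adjusted p = 0.0433), and the others had −0.21 and 0.09.

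Among the other RAB and RAB-like genes, RAB28 was called lower (20% of the group, beside 9.68% of all features). The other 4 tested (RABL2A, RABL3, RAB40B and RAB40C) were not called. RAB28, known from photoreceptors and cilia, ran from 6.26 to 7.18 in DD and from 6.74 to 7.46 in LW pigs, with 5 DD pigs below all LW pigs. Its FC was −0.40 ± 0.11 (adjusted p = 0.0216), with −0.19, −0.38 and −0.65 on the 3 chips. All 4 probes were lower in DD pigs, from −0.55 to −0.19, and the call was lost without LW 18 (adjusted p = 0.0687). With brightness as a covariate the FC was −0.16 (adjusted p = 0.754).

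The group labelled as GTPase-activating proteins held 9 of the 15 calls. It took in every TBC1D symbol by name, and whether each protein has that activity was not checked. Of the 20 tested, 8 were lower in DD pigs (beside 9.68% of all features) and 1 was higher (beside 11.2%), and their median FC was −0.18. TBC1D23, a TBC-domain protein of the trans-Golgi that captures vesicles from endosomes, was the clearest. Its level ran from 8.33 to 9.15 in DD pigs, with a median of 8.66, and from 9.12 to 9.68 in LW pigs, with a median of 9.27. All but 1 of the DD pigs lay below every LW pig, and 10 of 11 LW pigs lay above every DD pig. The FC was −0.57 ± 0.09 (adjusted p = 0.000462), with −0.54, −0.43 and −0.80 on the 3 chips. With brightness as a covariate it was −0.51 (adjusted p = 0.0213), and only without chip 3 did it miss the threshold (FC −0.47, adjusted p = 0.0771, in a range from 7.56e-05 to 0.0771 over the settings).

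RAB3GAP1 and RAB3GAP2 are the catalytic and the non-catalytic subunit of one complex, which inactivates RAB3 and is also an exchange factor for RAB18. Both were lower in DD pigs. RAB3GAP1 ran from 6.98 to 8.05 in DD and from 7.58 to 8.54 in LW pigs, with an FC of −0.65 ± 0.14 (adjusted p = 0.005). Of the DD pigs, 6 lay below all LW pigs. RAB3GAP1 was measured by 1 probe. With a further probe under a lower-case symbol averaged in, its FC was −0.45 ± 0.11 (adjusted p = 0.0122). RAB3GAP2 ran from 6.83 to 8.13 and from 6.80 to 8.27, and no DD pig lay below all LW pigs, with an FC of −0.48 ± 0.15 (adjusted p = 0.0282). In both genes the FC grew with the brightness gap of the chips, from −0.13, −0.74 and −1.14 in RAB3GAP1 to −0.13, −0.40 and −0.99 in RAB3GAP2. With brightness as a covariate they were −0.31 (adjusted p = 0.41) and −0.16 (adjusted p = 0.878), against lowest values of 0.00254 and 0.0133 over the settings. RAB3GAP2 lost its call when DD 21, DD 23, LW 18 or LW 22 was left out, and RAB3GAP1 kept it with each animal left out. The targets of the complex on the array, RAB3A and RAB3D, had FC of 0.11 ± 0.10 and −0.24 ± 0.13 and were not called. The 4 probes of RAB3A differed, with 1 called higher in DD pigs (0.44 ± 0.14, adjusted p = 0.0335) and the others at 0.25, −0.09 and −0.15. RAB3D had 1 probe, well above background on 1 DD and 4 LW arrays.

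TBC1D10A, which inactivates RAB27A and RAB35 among others, had the lowest FC of all members. It ran from 6.91 to 8.73 in DD pigs, with a median of 7.50, and from 6.70 to 9.51 in LW pigs, with a median of 8.80. Although all DD pigs were below the LW median, the lowest animal was an LW pig. The FC was −1.0 ± 0.30 (adjusted p = 0.0268), made up of −0.04, −1.01 and −2.05 on chips 1 to 3. It was −0.29 with brightness as a covariate (adjusted p = 0.911, in a range from 0.00251 to 0.911), and the call was lost without DD 21, DD 23, LW 18 or LW 22, all of chip 3.

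TBC1D16 and TBC1D4 were dim. TBC1D16, which acts on RAB4, was well above background on 1 DD and 4 LW arrays, with an FC of −0.66 ± 0.22 (adjusted p = 0.0388). This rests on 1 probe. Its other probe, removed as too dim, had a mean of 3.84 in DD and 3.83 in LW pigs. Without the filter on dim probes, which averages both, the FC was −0.33 (adjusted p = 0.104). TBC1D16 was called in 8 of 17 other settings. TBC1D4, which holds back glucose transporter vesicles until insulin signals, was well above background on 5 DD and 10 LW arrays, with an FC of −0.40 ± 0.14 (adjusted p = 0.044). The FC of TBC1D4 was close to 0 on chip 1, then −0.22 and −1.06. TBC1D16 had −0.21, −1.20 and −0.46. Leaving out an animal ended the call of TBC1D16 in 12 of 21 fits and that of TBC1D4 in 13. Without the litter block neither was called (adjusted p = 0.0603 and 0.0668), and on litter means TBC1D16 was called (adjusted p = 0.027) and TBC1D4 was not (adjusted p = 0.0756). Neither was called with brightness as a covariate (adjusted p = 0.586 and 0.961).

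TBC1D2B and TBC1D22A, which fell outside the 10 lowest and were named because they were called, had FC of −0.34 ± 0.12 (adjusted p = 0.041) and −0.30 ± 0.10 (adjusted p = 0.0371). TBC1D22A ran from 10.56 to 11.17 in DD and from 10.92 to 11.54 in LW pigs, and all DD pigs were below the LW median. TBC1D2B ran from 8.84 to 9.46 and from 8.87 to 9.97, with FC of −0.29, −0.27 and −0.49 on the 3 chips. Neither was called with brightness as a covariate, without chip 3, without the litter block (adjusted p = 0.0588 and 0.0562) or on litter means (adjusted p = 0.0532 and 0.0625). TBC1D15, which inactivates RAB7A, fell just short of the threshold, with an FC of −0.39 ± 0.14 (adjusted p = 0.0557) and −0.04, −0.24 and −0.96 on the 3 chips. It was called when a further probe, named through its accession, was averaged in (FC −0.39, adjusted p = 0.0328). TBC1D5, another regulator of RAB7A, had 0.17 ± 0.09 (adjusted p = 0.167), and TBC1D1, a close relative of TBC1D4, had −0.21 ± 0.11 (adjusted p = 0.151).

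TBC1D14, an inhibitor of autophagosome formation that binds RAB11, was the single member called higher in DD pigs. It was named after its values were seen, since its sign was not the same on the 3 chips. Its level ran from 7.92 to 10.22 in DD pigs, with a median of 9.11, and from 7.68 to 9.90 in LW pigs, with a median of 8.20. The FC was 0.68 ± 0.21 (adjusted p = 0.0327), made up of −0.02, 0.56 and 1.61 on chips 1 to 3. It was −0.02 with brightness as a covariate (adjusted p = 0.997, in a range from 0.00468 to 0.997) and 0.26 without chip 3 (adjusted p = 0.681). The call was also lost without the litter block (adjusted p = 0.0529) and in 9 of 21 fits with an animal left out.

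**Figure D3:**
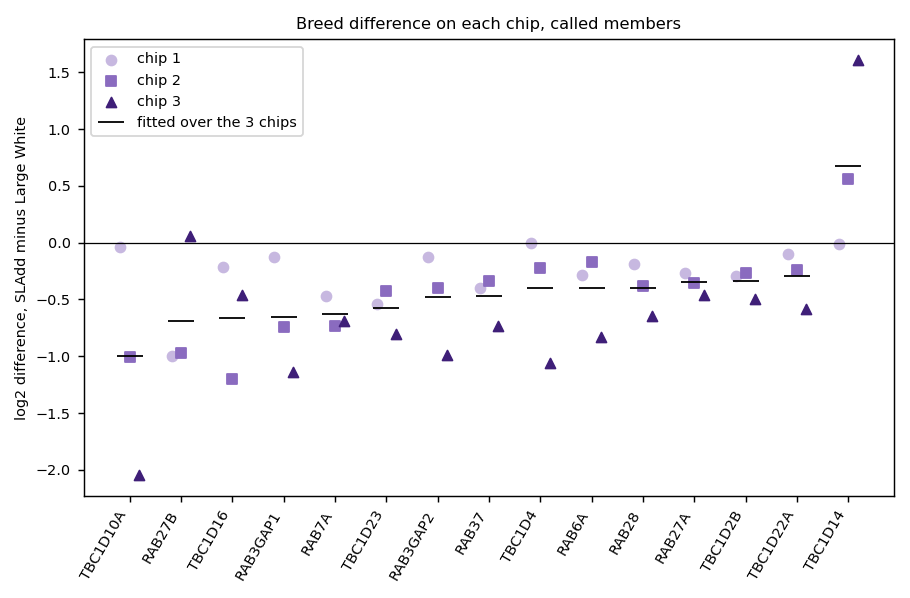
Log2 difference between DD (SLAdd) and LW (Large White) pigs on each of the 3 chips for the 15 called members, with the fitted value as a bar. The genes called lower have a median of −0.24 on chip 1 and −0.71 on chip 3. On chip 3 the points spread from −2.05 for TBC1D10A to 1.61 for TBC1D14, and RAB7A and TBC1D23 stay below 0 on all chips.

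The 14 genes called lower had a median difference of −0.24, −0.39 and −0.71 on chips 1 to 3, and the gap in array brightness widened in the same order. Over all 62 tested members the medians were −0.04, −0.17 and −0.20, and over all features they were 0.002, −0.02 and −0.11. Each DD pig was below the LW median in 11 to 14 of the 14 genes. These genes were picked as lower on the same arrays, so this count and the next follow in part from that choice. They are not separate evidence of a breed difference. The number of these genes in which a DD pig was below every LW pig was 9 or 10 in the 3 pigs of chip 3 and from 3 to 7 in the others. It was 3 in DD 06, the brightest DD array, and 10 in DD 21 and DD 23, the dimmest, but 5 and 4 in DD 16 and DD 10, which were the next dimmest. With brightness as a covariate, 3 members were called, RAB7A, TBC1D23 and RAB27B, and 2.21% of all features. Without chip 3, 2 members were called, RAB7A and RAB27B, and 1.52% of all features.

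**Figure D4:**
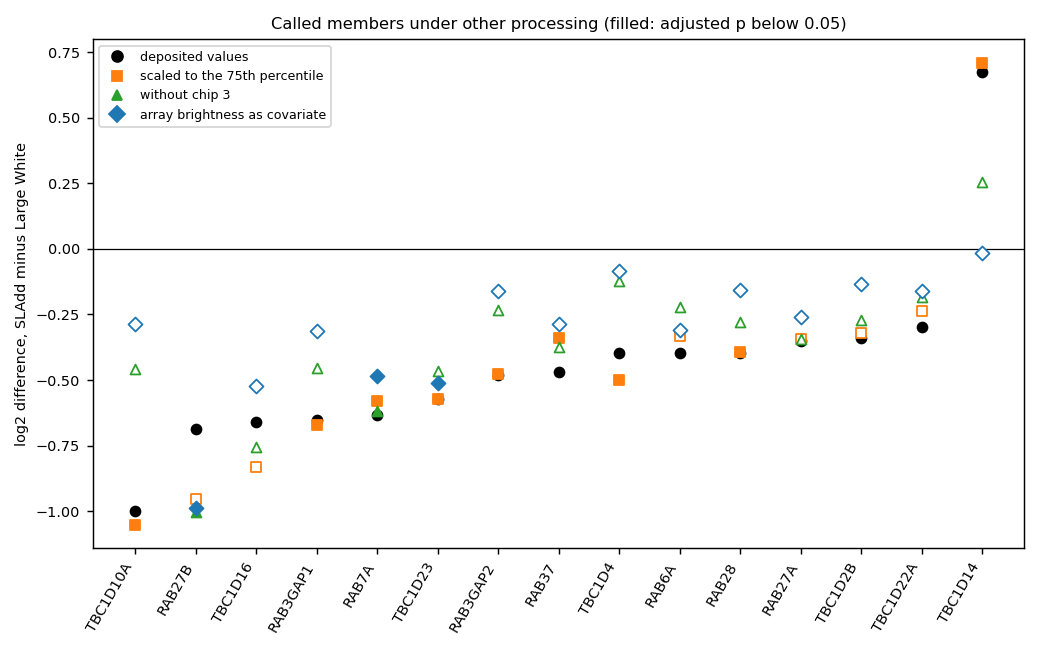
Log2 difference of the 15 called members from the deposited values, after scaling to the 75th percentile, without chip 3, and with array brightness as a covariate, filled where the adjusted p was below 0.05. RAB7A, filled under all 4, stays between −0.63 and −0.48, whereas TBC1D14 moves from 0.68 to −0.02 with the covariate.

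No exchange factor, effector or processing gene of the rule was called in limma, beside 20.9% of all features. An unadjusted limma p below 0.05 was found in 3 of 8 (RAB3IP, RAB11FIP2 and RAB11FIP5), beside 13409 of the 36493 features. The 8 tested lay between −0.40 for RAB3IP, an exchange factor of RAB8, and 0.36 for RAB3IL1, an exchange factor of RAB3. RABEP1, an effector of RAB5, had −0.37 ± 0.19, and the RAB11 effectors RAB11FIP2 and RAB11FIP5 had −0.30 ± 0.13 each. RAB11FIP5 was well above background on no DD array and 1 LW array. With low DD values raised as for RAB27B, this probe was 1.06-fold lower in DD pigs, which is not a strict bound either. When a further probe named through its accession was averaged in, the FC was 0.10 ± 0.11 (adjusted p = 0.549), of the opposite sign. RABGGTA, a subunit of the transferase that adds the lipid anchor, had −0.04 ± 0.11.

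Probes of one gene did not always agree. Of the 129 member probes tested on their own, 25 were called, 19 lower and 6 higher in DD pigs, beside 21.7% of all probes. Of 31 members with at least 2 tested probes, 18 had all probes on one side of 0 and 13 had probes on both sides. TBC1D20, a RAB1 inactivator, had 1 probe at 0.58 ± 0.17 (adjusted p = 0.0268) and another at −0.33 ± 0.12 (adjusted p = 0.0551), and their mean of 0.12 was not called. The first ran from 8.43 to 10.86 in DD and from 8.12 to 9.38 in LW pigs, and the second from 9.48 to 10.39 and from 9.93 to 10.74. Both were near 0 on chip 1 (0.03 and −0.03) and apart on chip 3 (1.42 and −0.76).

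The same was seen in RAB22A, an early endosomal GTPase, with 1 probe at −0.48 ± 0.14 (adjusted p = 0.0266) and another at 0.36 ± 0.18 (adjusted p = 0.149). RAB1A had 1 called probe at −0.42 ± 0.14, beside −0.02 and 0.13 for the others. TBC1D12 had 2 probes called higher, at 0.43 and 0.48, and 2 others at −0.20 and −0.09. These genes were chosen for their disagreement after the values were seen. Where 2 probes of one member had the same sequence, they agreed, with −0.23 and −0.23 in RAB2A, 0.06 and 0.07 in RABGGTA, and 0.25 and 0.23 in TBC1D7. Some probes outside the naming rule, such as those named rab33a and rabac1, also had the sequence of a member probe and were not compared here. The probe names of 43 member probes mark a separate set of oligonucleotides, and 23 members had only these. Of these probes, 23 carry a RefSeq transcript accession, and 0 of those accessions are in RefSeq's table of pig genes (Sscrofa11.1). The calls of 8 members rest on 1 such probe (RAB37, RAB27B, RAB6A, RAB3GAP2, TBC1D10A, TBC1D14, TBC1D16 and TBC1D22A). Whether a probe matches the pig gene at all its bases was not tested.

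**Figure D5:**
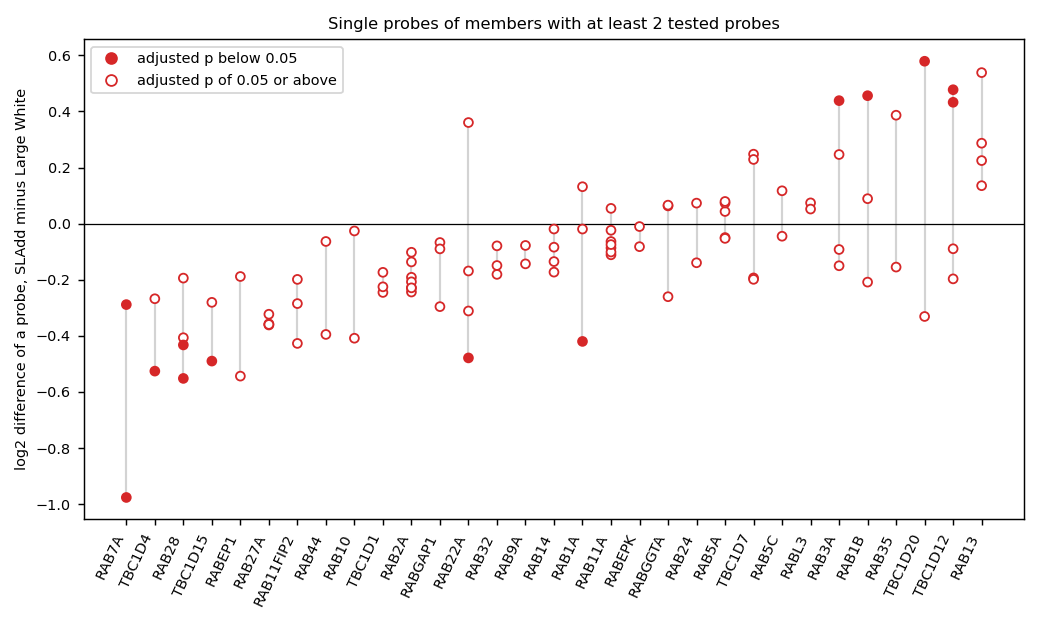
Log2 difference between DD and LW pigs of each single probe, for the 31 members with at least 2 tested probes, ordered by their mean, filled where the adjusted p was below 0.05. The probes of RAB27A, RAB5A and RAB11A lie close together, and those of TBC1D20 and RAB22A lie on both sides of 0.

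Genes of the RAB network outside the naming rule were read from a list of 98 symbols, of which 62 were tested. In DD pigs 7 were called higher (11.3%, beside 11.2% of all features) and 3 lower (4.84%, beside 9.68%), and their median FC was −0.02. Those lower were SYTL2, an effector that ties RAB27 to the plasma membrane (−0.75 ± 0.24, adjusted p = 0.0322), DENND4C, an exchange factor of RAB10 (−0.50 ± 0.15, adjusted p = 0.0276), and GOLGA4, a Golgi tether (−0.35 ± 0.11, adjusted p = 0.0383). OPTN, an adaptor of autophagy that binds RAB8, had the smallest adjusted p of those higher (0.78 ± 0.13, adjusted p = 0.000435). RIN1, an exchange factor of RAB5, had 0.85 ± 0.26 (adjusted p = 0.0306), and ANKFY1, an effector of RAB5, had 0.50 ± 0.15 (adjusted p = 0.0265). LRRK1, EHBP1L1, RIMS1 and ALS2CL were the others called higher. GDI2, which extracts RAB proteins from membranes, had −0.23 ± 0.15 and was not called. With brightness as a covariate or without chip 3, 1 gene of this list was called, as higher.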

How the data were processed

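The members and gene lists were chosen with earlier results of these data known. Total RNA of whole blood was hybridized with 1 array per pig. Spots were read by the authors with Agilent Feature Extraction 10.7.3.1, per the submitters' processing notes. The scanner files hold deposited intensity values without normalization between arrays, and the authors' log2 matrix was background corrected and quantile normalized after outlier arrays had been removed. Flags for a signal well above background (a deposited score of 0 or 1) were set by the same software and held for 44.7% to 63.8% of probes per array. Precision is limited by the number of arrays.

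The 25% of probes with the lowest mean were removed, and the rest averaged per gene symbol. Probes without a symbol were kept singly. Breeds were compared in limma 3.58.1 (R 4.3.3, statmod 1.5.0) with chip as a fixed effect, litter as a random block (consensus correlation −0.11) and Benjamini-Hochberg adjustment. Because this correlation was negative, the block made the comparison of breeds less strict, not more. With it 20.9% of features and 15 members were called, and without it 14.3% and 8. Litter and chip came from the study's sample list. Named genes are the called members with 1 sign on all 3 chips, up to 10 lowest and 10 highest, and RAB1A, RAB5A, RAB7A, RAB10, RAB11A, RAB27A and RAB32. The steps were tested on simulated data. The files were read with pandas 2.3.3 under Python 3.11.15, and plots were drawn with matplotlib 3.10.9. Probe sequences came from the scanner files.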

Additional observations from a re-analysis of the deposited data

Results flagged for a closer look

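RAB27B in DD 23 had a log2 level of 5.25, far above the other DD pigs, of which the next was at 4.44. The gap made up 0.566 of the range of the 10 DD pigs, which is above the critical value of Dixon's test, and about 1 in 20 groups passes it by chance. DD 23 was on chip 3, where the difference in RAB27B was 0.06 with this pig and −0.27 without it, and its spot was not well above background. The test was run on 20 genes (the 15 called members and RAB1A, RAB5A, RAB10, RAB11A and RAB32), and no other had such a value in DD pigs. The 11 LW pigs were not tested, since only the critical value for 10 animals was used.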

How the results depend on the processing

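No paired analysis was possible because the breeds share no animal number. The counts of 15 called members (14 lower, 1 higher in DD pigs), 7635 called features, 25 called member probes and 10 called network genes (7 higher, 3 lower) moved most with chip 3 and brightness. With array brightness as a covariate they became 3 members (3 lower, 0 higher), 806 features, 3 probes and, in the network, 1 higher and 0 lower. The FC of TBC1D14 changed sign there, to −0.016. Without chip 3 they became 2 members (2 lower, 0 higher), 555 features, 3 probes, and 1 and 0 in the network. Without the chip term they were 5 members (5 lower, 0 higher), 1981 features, 5 probes, and 1 and 0. Without the litter block they were 8 members (8 lower, 0 higher) and 12 probes. Without the filter on dim probes they were 8 members (8 lower, 0 higher), 4808 features, 12 probes and 1 network gene lower. Without chip 2 they were 9 members (9 lower, 0 higher). Scaling to the 75th percentile gave 8 lower and 2 higher members and 16 probes, and moved the median FC of all features from −0.05 to 0.06. Cyclic loess gave 9 lower, 2 higher, and 1 network gene lower. Features with a symbol alone gave 3184 features called, of fewer tested. The brightest probe per gene and the filter on signal well above background each gave 5 network genes lower. Symbols in any letter case, a setting chosen after seeing the data, gave 4 members higher, adding RAB4A (0.97), RAB25 (0.93) and RAB33A (0.57). Names through accessions added RAB29 (−0.59) and TBC1D15 (−0.39) to the lower genes.

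With 1 animal left out, the called members ranged from 5 to 20, those lower from 5 to 19, those higher from 0 to 1, the median member FC from −0.17 to −0.10, the features from 2310 to 12071, the member probes from 6 to 39, and the network genes from 1 to 10 higher and from 0 to 6 lower. Fewer than 10 members were lower without DD 08, DD 19, DD 21, DD 23, LW 05, LW 12, LW 14, LW 18 or LW 22. The cause of these changes was not tested. RAB7A was called in all settings run. RAB3GAP1 and RAB37 lost their calls without chip 3 and with the covariate, and TBC1D23 without chip 3.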
